A study of Homo sapiens with 3 samples.

Results

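The long-term derivative of the lung cancer line H460, called ldR-H460, was compared with its mid-term derivative, mdR-H460, cell by cell and as whole libraries. All 4956 cells of the ldR-H460 library and all 5151 cells of the mdR-H460 library were used, 10107 of the 14638 cells of the study. No cell was chosen or left out by its expression. The question asked was which genes differed between the later and the earlier derivative, and whether each difference was spread over most cells or carried by a minority of them.

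H460 is an established human large-cell lung carcinoma line. The study concerns resistance to several drugs that is gained and lost in a model of reprogrammed cancer cells, as its title states. The preparation began with gamma-irradiated human fibroblasts, which served as a feeder layer and as a source of conditioned medium for cells moved into Pluriton, a stem cell medium. Single-cell libraries of the parental line and of both derivatives were made with the 10x Chromium 3′ kit, 1 library each. Both derivatives share the parental line and this preparation. The labels call the libraries mid-term and long-term dR-H460 and carry the tags D13 and D30, which the labels do not explain, so no times are stated. How reprogramming was induced is not stated in them either. With 1 library a group there is no measure of variation between cultures, no test of a difference between the derivatives could be made, and all intervals below are 95% intervals that cover counting error only.

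As background, epithelial tumour cells under inflammatory or stress signals release chemokines, acute-phase proteins, protease inhibitors and calcium-binding S100 proteins, many of them through the transcription factor NF-kB. Spread cells with active YAP, a coactivator that works through the DNA-binding TEAD proteins, express matrix and cytoskeletal targets such as ANKRD1 and CTGF. Cells short of amino acids or with misfolded proteins in the endoplasmic reticulum turn on ATF3, DDIT3 and SESN2, the integrated stress response.

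Both libraries carried keratins of simple epithelium, while several lung and epithelial markers were nearly absent. In CPM (the UMIs of a gene divided by all UMIs of its library, times 1e6), KRT18 stood at 1755 in mdR-H460 and 1203 in ldR-H460 (parental 1079). KRT7 stood at 184 and 108 (parental 57.8). The adhesion gene CDH1 and the surfactant gene SFTPB had no UMI in any library, EPCAM had 18 UMIs in mdR-H460 and 8 in ldR-H460, and the lung factor NKX2-1 had 8 and 0. Of 18 markers of fibroblasts, the feeder cell type, 9 were at 0 in each derivative, among them DCN, THY1 and PDGFRA, and without S100A4 the list summed to 4.97 CPM in mdR-H460 and 6.52 CPM in ldR-H460. Of 10 blood and endothelial markers, 5 and 7 were at 0, PTPRC and VWF included, and the lysosomal gene CD68 made up 26.6 of 30.6 CPM in mdR-H460 and 5.89 of 9.08 CPM in ldR-H460.

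The libraries held 66624830 UMIs (mdR-H460) and 60468481 UMIs (ldR-H460), with medians of 11736 and 12342.5 UMIs per cell. No deposited ldR-H460 cell had 4000 or more detected genes, against 504 mdR-H460 cells, and cells under 1000 UMIs made up 4.40% and 11.4%. The libraries shared 24 cell barcodes, 0.484% of those of ldR-H460. When cells of both libraries were clustered together, most cells fell in clusters of their own library. Clusters 5 and 7 were shared. Cluster 5, of shallow cells with a median of 457 UMIs, held 249 ldR-H460 cells (5.02%) and 709 mdR-H460 cells (13.8%). Cluster 7 held 72 ldR-H460 cells and 178 mdR-H460 cells. Outside clusters 5 and 7, 31 ldR-H460 cells and 35 mdR-H460 cells fell in clusters of the other library, and none of them had a shared barcode. Values that rest on these 31 cells are given below with and without them.

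Most genes stood at a like level in the 2 derivatives, and the differences ran in both directions. Of 6189 genes with 10 CPM or more in the higher library, 5013 (81.0%) were within 1.5-fold, and the median log2 ratio of ldR-H460 over mdR-H460 was 0.00. In ldR-H460 159 genes (2.57%) stood 2-fold or more above mdR-H460 and 191 (3.09%) stood 2-fold or more below it. Thus 54.6% of the 350 were lower, or 43.9% when totals left out mitochondrially encoded and ribosomal protein genes. At least 10-fold apart were 7 higher and 19 lower genes. More of the lower genes were abundant: 46 of the 191 had 100 CPM or more in mdR-H460, against 8 of the 159 higher genes in ldR-H460. Most were not, with medians of 32.7 CPM for the lower genes in mdR-H460 and 17.7 CPM for the higher genes in ldR-H460. The parental level lay between the 2 derivatives for 71 higher and 87 lower genes, and at or above the higher derivative for 34 and 84.

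**Figure D1:**
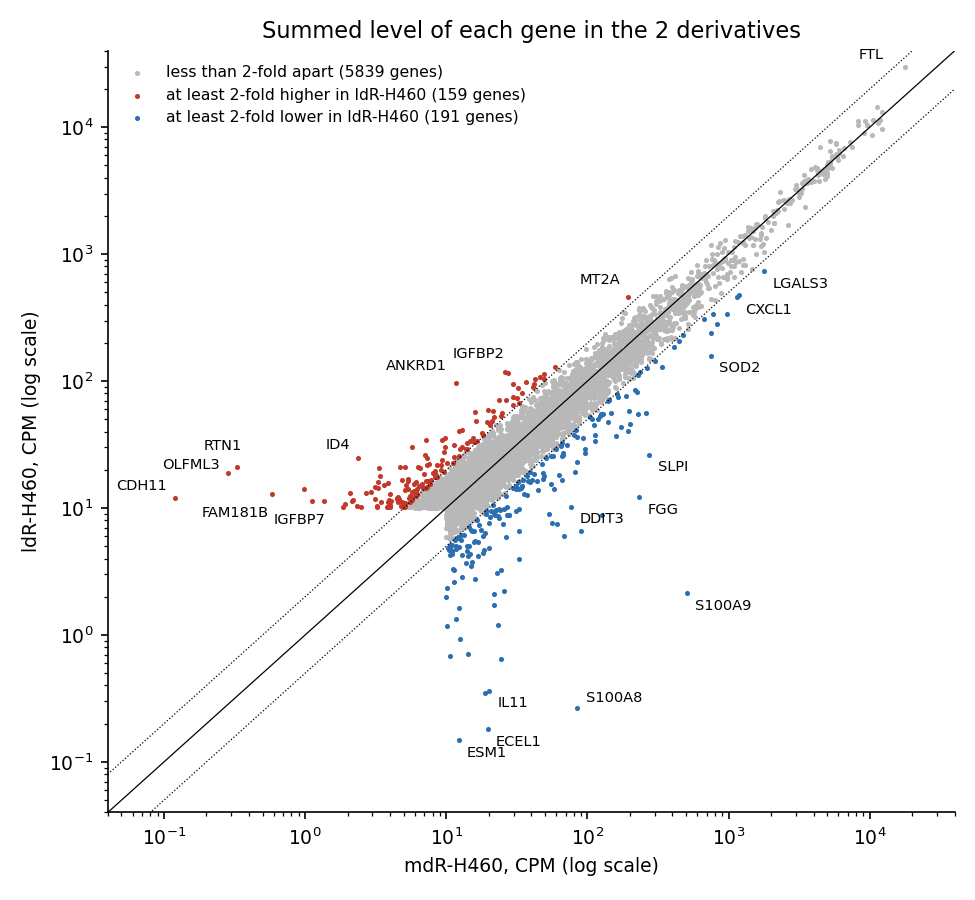
Each point is 1 of the 6189 genes with 10 CPM or more in the higher library, with its CPM in mdR-H460 (x, log scale) against ldR-H460 (y, log scale), the solid line marking equal levels and the dotted lines 2-fold. S100A8 and S100A9 lie farthest below the lines and CDH11, OLFML3 and RTN1 farthest above, while the 191 lower genes reach higher levels than the 159 higher ones.

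To separate differences in most cells from differences in a few, 5000 UMIs were drawn from every cell (thinning), which left out 435 ldR-H460 cells (8.78%) and 1271 mdR-H460 cells (24.7%) that were shallower. A gene was counted as changed in most cells when the fold stayed at 2 or more without the 10% of cells richest in it and 50% or more of the cells of the higher library exceeded the median cell of the other. It was counted as changed in a minority when the fold without those cells was under 1.5, or when under 50% as many cells held a UMI as an even (Poisson) spread would give. Genes needed a mean of 0.5 UMIs per thinned cell, which 48 of the 191 lower but only 10 of the 159 higher genes reached. Among the lower genes 28 were changed in most cells, 3 in a minority (S100A9, DDIT3 and SNAPC1) and 17 in neither way. S100A9 met the minority rule by its uneven spread in mdR-H460. A UMI of it was found in 54.5% of all mdR-H460 cells and 0.888% of all ldR-H460 cells, so its change was not confined to a few cells. Among the higher genes 1 was changed in most cells, the metallothionein MT2A, none in a minority and 9 in neither way.

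A second measure, added after these counts were seen, reached the low genes too. The effective share of cells compares the pairs of UMIs of a gene found in the same cell with the pairs an even spread would give, so that a gene held evenly by a given percent of cells and by no others has that percent as its effective share. Over all genes at this level its median was 89.2% in ldR-H460 and 85.9% in mdR-H460. Of the higher genes 131 (82.4%) had an effective share of 50% or more in ldR-H460 and 5 (3.14%) one under 25%, namely CDH11, IGFBP7, APLN, EDN1 and TUBB2B. Of the lower genes 111 (58.1%) had 50% or more in mdR-H460 and 34 (17.8%) under 25%. Over all genes 97.7% had a share of 50% or more in ldR-H460 and 95.4% in mdR-H460, and 0.510% and 1.43% had one under 25%. Genes at least 2-fold apart, the lower ones more than the higher ones, thus had lower effective shares than genes at large.

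**Figure D2:**
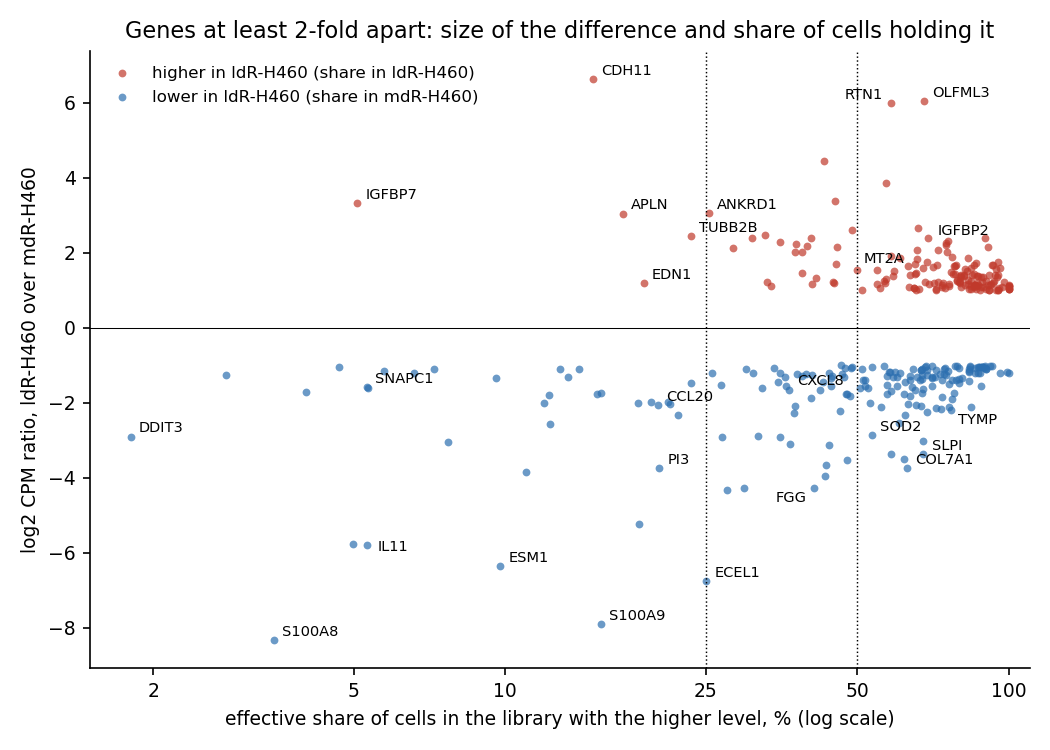
Each point is a gene at least 2-fold apart, with the effective share of cells in the library where it was higher (x, log scale) against its log2 CPM ratio (y), red for genes higher and blue for genes lower in ldR-H460, and dotted lines at 25% and 50%. The lower genes reach down to an effective share of 1.80% (DDIT3), whereas 5 of the higher genes lie under 25%.

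SLPI and SOD2 were among the 28 lower genes changed in most cells. SLPI, a secreted inhibitor of neutrophil elastase, stood at 274 CPM in mdR-H460 and 26.4 CPM in ldR-H460 (parental 203), 10.4-fold lower. A UMI of SLPI was found in 63.9% of thinned mdR-H460 cells and 11.2% of thinned ldR-H460 cells, or 75.7% and 21.7% without thinning. SLPI was lower in each of the main clusters: 190 and 481 CPM in mdR-H460 clusters 2 and 3, against 20.5, 41.5 and 16.8 CPM in ldR-H460 clusters 1, 4 and 6. SOD2, the mitochondrial superoxide dismutase, fell from 751 CPM in the mid-term to 159 CPM in the long-term library (parental 311), 4.73-fold lower, and from 89.5% to 44.9% of thinned cells (86.2% to 67.4% of all cells). Its level was 724 and 790 CPM in the 2 main mdR-H460 clusters and between 147 and 155 CPM in the 3 main ldR-H460 clusters. The chance that a random ldR-H460 cell held more SOD2 UMIs than a random mdR-H460 cell, with ties counted to both sides evenly, was 16.4%.

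Fibrinogen genes, which encode the clotting protein made chiefly by the liver in the acute phase, were lower together. FGG, the gamma chain, stood at 233 CPM in mdR-H460 and 12.2 CPM in ldR-H460 (parental 29.3), 19.2-fold lower (17.8 to 20.7), with UMIs in 51.5% and 4.89% of thinned cells (63.4% and 9.36% of all). The alpha chain FGA stood at 56.3 and 7.69 CPM, 7.32-fold lower, and the beta chain FGB at 32.9 and 6.53 CPM, 5.03-fold lower. LCN2, an iron-binding lipocalin of the acute phase, had 6.47 CPM in mdR-H460 and 0.0662 CPM in ldR-H460. FGG was not evenly held in mdR-H460: its effective share was 41.1%, with 456 CPM in cluster 3 against 144 CPM in cluster 2. Against the background of 11799 genes with 1 CPM or more in either derivative, of which 14.6% lay 1.5-fold or more above mdR-H460 and 10.6% as far below it, with a median log2 ratio of 0.08, the 7 measured acute-phase genes had 1 higher, 4 lower and a median of -2.33. The higher one, SAA1, had a UMI in 0.129% and 0.288% of thinned cells (0.291% and 0.605% of all).

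Other genes lower in most cells encode inhibitors of proteases, secreted proteins and enzymes. TIMP1, an inhibitor of matrix metalloproteinases, stood at 974 and 336 CPM (parental 1898), 2.90-fold lower, and TFPI2, an inhibitor of serine proteases, at 824 and 281 CPM (parental 850), 2.93-fold lower. Both were common in ldR-H460, where 74.7% of thinned cells had a UMI of TIMP1 and 63.0% of TFPI2. Without thinning TIMP1 was found in 89.1% and 89.9% of the cells. SPP1, the secreted phosphoprotein osteopontin, fell from 1193 to 477 CPM (parental 870). Of thinned mdR-H460 cells 75.5% held more SPP1 than the median thinned ldR-H460 cell. LGALS3, the sugar-binding galectin-3, fell from 1795 to 738 CPM (parental 4068), with a median of 6 UMIs per thinned cell in mdR-H460 and 2 in ldR-H460. TYMP, which splits thymidine, stood at 159 and 36.7 CPM, 4.32-fold lower (50.9% to 16.8% of thinned cells). ASAH1, the lysosomal acid ceramidase, stood at 45.6 CPM in ldR-H460, 4.39-fold lower (55.5% to 19.8% of thinned cells). Of the 16 protease inhibitors measured 8 were at least 1.5-fold lower and 4 higher, with a median of -0.73, and the higher ones included TIMP3 (0.720 to 7.71 CPM) and SERPINB2 (24.8 to 56.3 CPM).

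**Figure D3:**
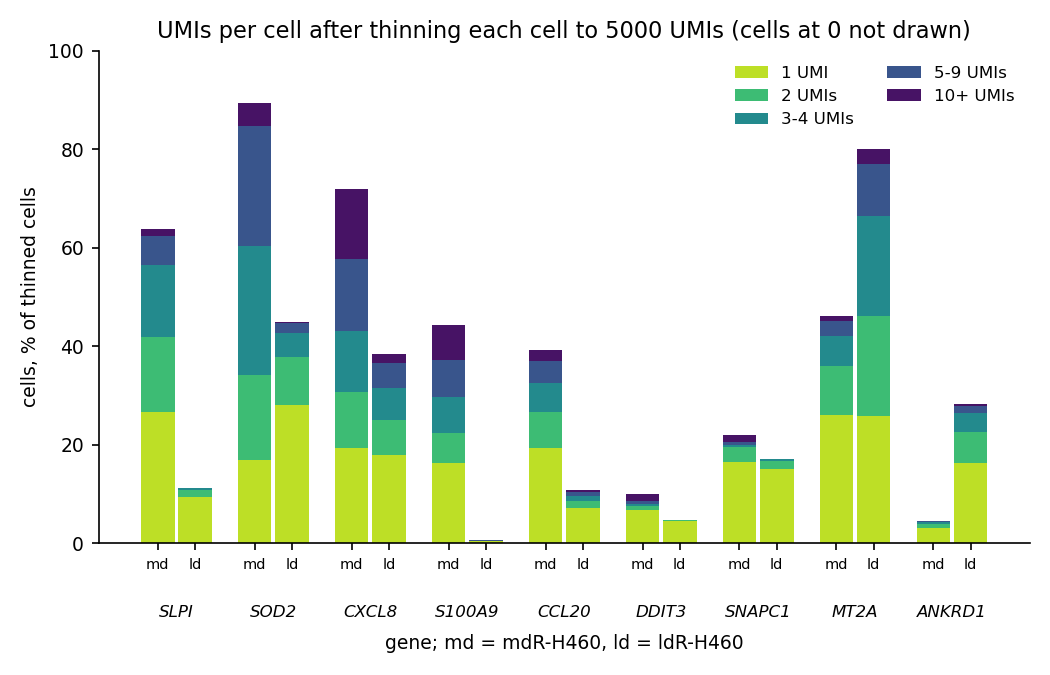
Stacked bars give the percent of thinned cells with 1, 2, 3 to 4, 5 to 9 or 10 and more UMIs of 9 genes in mdR-H460 (md) and ldR-H460 (ld), cells at 0 not drawn. For SOD2 and SLPI the whole distribution is lower in ldR-H460, for MT2A it is higher, and for DDIT3 and SNAPC1 the bars differ mainly in the upper classes, which ldR-H460 nearly lacks.

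Neutrophil chemokines and other NF-kB output genes were mostly lower. Of the 16 measured, 11 were at least 1.5-fold lower in ldR-H460 and 2 higher, with a median of -1.17. The higher ones were CCL2, a monocyte chemokine, at 0.675 and 2.51 CPM (log2 ratio 1.90), and TNFAIP2. CXCL8, the chemokine interleukin-8, stood at 747 CPM in mdR-H460 and 239 CPM in ldR-H460 (parental 1048), 3.13-fold lower, and was found in 72.0% and 38.4% of thinned cells (81.7% and 52.6% of all). CXCL1 stood at 1145 and 461 CPM (parental 3410), 2.48-fold lower, and in 88.3% and 63.3% of thinned cells (87.8% and 77.6% of all). Reads of CXCL1, CXCL2 and CXCL3, which are close copies, may be shared between them. CXCL2 stood at 114 and 33.6 CPM and CXCL3 at 79.9 and 37.6 CPM. CCL20, a chemokine for dendritic and T cells, stood at 230 and 55.4 CPM, 4.15-fold lower. NFKBIA, the inhibitor that NF-kB itself induces, stood at 117 and 59.5 CPM, 1.97-fold lower. CXCL5 stood at 61.6 and 64.1 CPM, the NF-kB subunit NFKB1 at 14.2 and 18.1 CPM, and TNFAIP2, a cytokine-induced gene, at 49.6 and 105 CPM, 2.11-fold higher. The chemokine UMIs of ldR-H460 lay in fewer cells: the effective share was 59.8% in mdR-H460 and 29.4% in ldR-H460 for CXCL1, 36.6% and 10.6% for CXCL8, and 20.1% and 1.68% for CCL20. A single ldR-H460 cell held 330 CCL20 UMIs, and with the richest cell of each library left out the effective share of CCL20 was 20.4% and 4.27%. For CXCL1 it was then 60.3% and 30.9%. The 31 ldR-H460 cells that clustered with mdR-H460 held 6.09% of the CCL20 UMIs, and without them CCL20 stood at 52.4 CPM.

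The starts of some of these genes are shown because the same motif occurs in genes that were lower and in CXCL5, at a near-equal level. Of 14 members with a RefSeq promoter window (GRCh38.p14, 250 bases before to 50 after the start), 9 held the NF-kB consensus motif on either strand (64.3%), against 12.3% of all 15843 windows of this length. The members were listed as NF-kB output, and CXCL1, CXCL2 and CXCL3 are close copies, so the share is a description of the list only. CCL2 and RELB had no window. The pattern searched was GGGRNNYYCC, where R is A or G, Y is C or T and N is any base. Sites that depart from this pattern were not counted, so a window without a match may still hold a site. Windows without a match were those of CXCL8 and SOD2, both lower in ldR-H460, of TNFAIP2, which was higher, and of NFKB2 and ICAM1. Matches not printed are those of TNFAIP3 and BIRC3, both lower, and of NFKB1, at 14.2 CPM in mdR-H460 and 18.1 CPM in ldR-H460. Each line gives the motif with 25 bases on both sides, read along the gene, 5′ to 3′, with the motif in capitals; where matches on the 2 strands overlap, as in CXCL1, they are shown as 1 run. CXCL1 lies at chr4:73869289-73869349 (plus strand), CXCL2 at chr4:74099238-74099298 (minus), CXCL3 at chr4:74038733-74038793 (minus), CXCL5 at chr4:73998733-73998793 (minus), CCL20 at chr2:227813738-227813797 (plus) and NFKBIA at chr14:35404796-35404855 (minus).
CXCL1: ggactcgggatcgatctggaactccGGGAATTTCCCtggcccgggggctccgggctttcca
CXCL2: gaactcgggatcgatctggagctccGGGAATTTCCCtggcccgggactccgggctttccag
CXCL3: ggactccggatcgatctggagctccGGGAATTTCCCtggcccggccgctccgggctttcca
CXCL5: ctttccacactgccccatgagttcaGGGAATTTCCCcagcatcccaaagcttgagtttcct
CCL20: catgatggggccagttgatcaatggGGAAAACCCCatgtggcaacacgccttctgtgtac
NFKBIA: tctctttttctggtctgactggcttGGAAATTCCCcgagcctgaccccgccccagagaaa
CXCL5, at a near-equal level in both derivatives, has the same capital letters as CXCL1, CXCL2 and CXCL3, which were lower in ldR-H460. A match describes the sequence and is no evidence of binding.

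**Figure D4:**
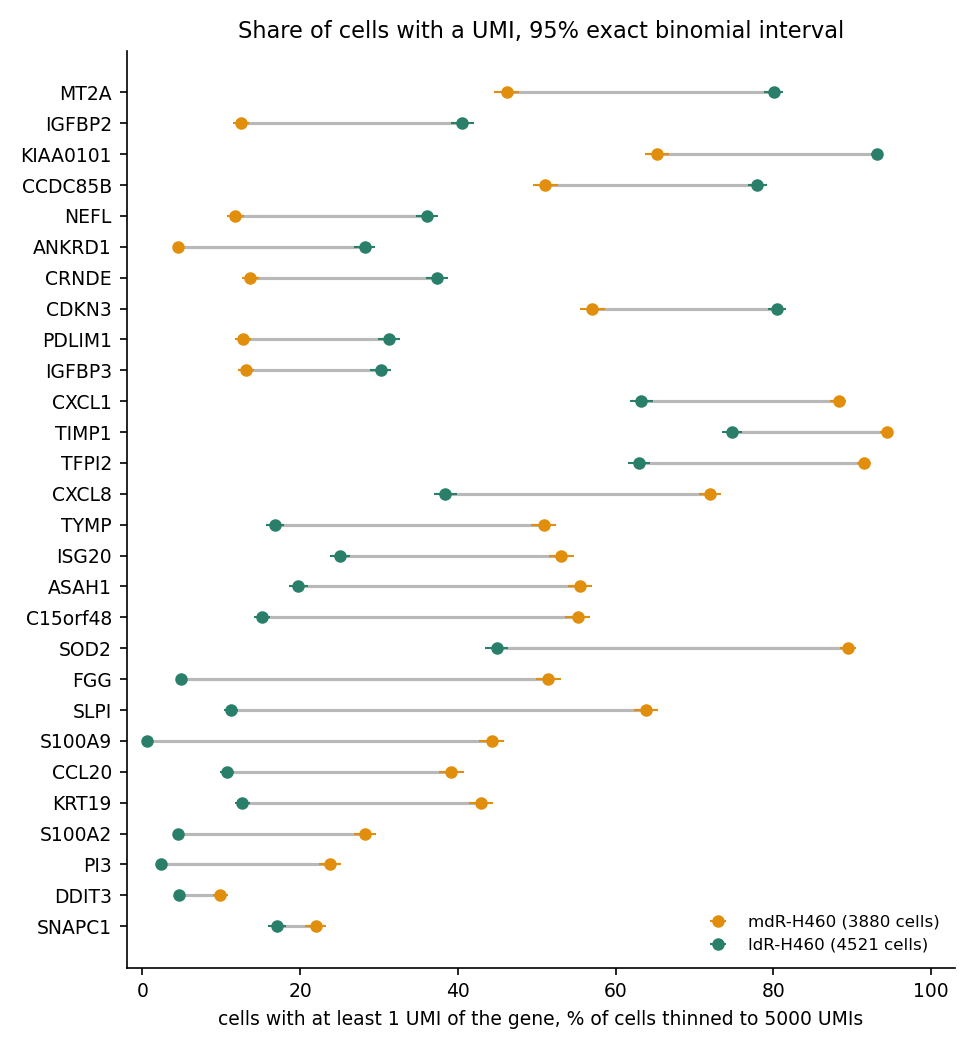
Points give the percent of thinned cells with at least 1 UMI of 28 genes in mdR-H460 (orange, 3880 cells) and ldR-H460 (green, 4521 cells), with 95% exact binomial intervals. From MT2A to IGFBP3 the green point lies to the right, by 33.9 points for MT2A, and from CXCL1 to SNAPC1 it lies to the left, most for SLPI and least for SNAPC1.

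The largest ratios among the lower genes belonged to the calprotectin genes. S100A8 and S100A9 encode the 2 chains of calprotectin, a calcium- and zinc-binding alarm protein of neutrophils and inflamed epithelium. S100A9 stood at 509 CPM in mdR-H460 and 2.13 CPM in ldR-H460 (parental 363), 238-fold lower over all cells (201 to 286), and was found in 44.3% and 0.597% of thinned cells (54.5% and 0.888% of all). S100A8 stood at 84.7 and 0.265 CPM (parental 124), 320-fold lower over all cells (197 to 561). It was found in 11.1% and 0.0664% of thinned cells (17.9% and 0.101% of all). The ldR-H460 shares lie below that of the red-cell gene HBA1, with a UMI in 1.16% and 0.708% of thinned cells of the 2 libraries. Whether they are background was not tested. The S100A9 UMIs of ldR-H460 were concentrated, with an effective share of 0.167% and up to 47 UMIs in a cell, against at most 2 for HBA1. Of these S100A9 UMIs 43.4% lay in 3 of the 31 cells that clustered with mdR-H460. HBA1 itself was uneven in mdR-H460, with 17.2% of its UMIs in cluster 7, and its CPM in ldR-H460 lay below that of S100A9. Of the 16 S100A8 UMIs of ldR-H460, 13 were in 2 of the 31 cells that clustered with mdR-H460, so 3 remained without those 31 cells. Without them and the 35 mdR-H460 cells the ratio was 1703-fold (582 to 8260) for S100A8 and 420.0-fold (334 to 536) for S100A9, which then stood at 1.22 CPM in ldR-H460.

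Within mdR-H460 the calprotectin genes were uneven. The effective share was 15.5% for S100A9 and 3.46% for S100A8, and the 10% of cells richest in S100A9 held 66.2% of its UMIs. They were not held by 1 cluster, since S100A9 stood at 472 CPM in cluster 2 and 596 CPM in cluster 3. Across thinned mdR-H460 cells S100A8, S100A9 and PI3, the elastase inhibitor elafin, tended to be high in the same cells, with a mean pairwise Pearson correlation of 0.35, a description over cells of 1 library. PI3 stood at 89.5 and 6.65 CPM, 13.5-fold lower, and at 5.81 CPM in ldR-H460 without the 31 cells. S100A2, a p53-responsive member, stood at 127 and 8.81 CPM, 14.4-fold lower (28.2% to 4.47% of thinned cells). S100A6 stood at 2639 and 1710 CPM, and S100A4 was 1.27-fold higher in ldR-H460, at 414 and 526 CPM, but lower without cluster 2 (log2 ratio -0.46). Of 11 S100 genes measured 7 were at least 1.5-fold lower and none higher, with a median of -0.73.

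Several cytokine and growth factor genes were present in a small part of mdR-H460 and nearly gone from ldR-H460. IL11, an IL6-family cytokine, had 20.1 CPM in mdR-H460 and 0.364 CPM in ldR-H460 (parental 0.680), 55.4-fold lower (36.4 to 88.6), with UMIs in 5.10% and 0.133% of thinned cells and an effective share of 5.32% in mdR-H460. ESM1, the secreted proteoglycan endocan, had 12.2 and 0.149 CPM (parental 33.2), 82.3-fold lower (43.1 to 181). AREG, a ligand of the EGF receptor, had 32.7 and 3.94 CPM, 8.31-fold lower, of which 25.6% in ldR-H460 lay in the 31 cells, and 2.95 CPM without them. IL1B had 8.89 and 1.16 CPM, 7.68-fold lower. ECEL1, a membrane metalloprotease, had 19.6 and 0.182 CPM, 108-fold lower (60.0 to 216), and LCN1, a lipocalin of tears, 24.4 and 0.645 CPM (parental 249.6), 37.8-fold lower. Of 12 genes of the IL6 and IL1 families 6 were at least 1.5-fold lower and none higher, with a median of -0.65.

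A separate minority pattern of mdR-H460 consisted of stress response genes in 178 cells. Of the lower genes with an effective share under 25%, 14 were grouped by their correlation across thinned mdR-H460 cells (mean 0.37), among them DDIT3, ATF3, PPP1R15A, SESN2, GADD45B, CTH, VGF, CSRNP1, SNAPC1, SNHG12, IL6 and CXCL2. Cell cluster 7, 3.46% of mdR-H460 cells, held between 20.8% and 78.2% of the mdR-H460 UMIs of each of them, with a median of 47.1%. The genes were grouped and the cluster was built on counts of the same cells, so this concentration is a description. DDIT3, the stress-induced factor CHOP, stood at 76.5 CPM in mdR-H460 and 10.3 CPM in ldR-H460 (parental 41.6), 7.46-fold lower (6.86 to 8.12). Inside the cluster it stood at 2648 CPM and in the other mdR-H460 cells at 17.1 CPM, and 89.9% of the cluster's cells had a UMI of it. Its effective share in mdR-H460 was 1.80%, against 36.6% in ldR-H460.

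Leaving this cluster out of both libraries divided the 14 genes. Because the cluster was built on the same counts, smaller ratios without it describe where the UMIs lay. At least 2-fold lower without it were 5 genes, and within 1.5-fold were 7, with a median log2 ratio of -0.64. DDIT3 was 1.74-fold lower without it and SNAPC1, a subunit of the complex that drives small nuclear RNA genes, 1.34-fold lower, from 2.99-fold with it. SESN2, a stress-induced inhibitor of growth signalling, was 2.41-fold lower with the cluster and stood at 4.05 and 4.46 CPM without it, so its direction turned. CSRNP1 turned too, to a log2 ratio of 0.23 without the cluster. GADD45B, a stress gene of the GADD45 family, was 2.31-fold lower with the cluster and 1.07-fold lower without. IL6 stayed lower, at 40.2 against 9.11 CPM without the cluster, 4.41-fold. CXCL2 stayed 2.75-fold lower. In ldR-H460 the same cluster held 72 cells (1.45%), in which DDIT3 stood at 37.1 CPM, against 9.80 CPM in the other ldR-H460 cells. Not all of the 14 genes were higher there: ATF3 stood at 8.02 against 9.47 CPM and SNAPC1 at 31.1 against 37.9 CPM. Of the ldR-H460 UMIs of each of the 14 genes, these 72 cells held a median of 1.92%. Of the 28 genes of the unfolded protein and integrated stress responses 8 were at least 1.5-fold lower and 2 higher, with a median of -0.22.

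The genes higher in ldR-H460 were mostly of low level: 93 of the 159 had a UMI in under 10% of thinned ldR-H460 cells, and their median effective share was 77.5%. OLFML3, a secreted matrix glycoprotein, had 0.285 CPM in mdR-H460 and 18.9 CPM in ldR-H460 (no UMI in the parental library), 66.4-fold higher (42.3 to 111). A UMI of it was found in 0.155% and 8.87% of thinned cells (0.369% and 19.0% of all), and in 0.533% of the cells of the largest mdR-H460 cluster against 18.3%, 20.9% and 23.7% of the unthinned cells of ldR-H460 clusters 1, 4 and 6. Its effective share in ldR-H460 was 67.7%. RTN1, a reticulon of the endoplasmic reticulum best known in neurons, had 0.330 and 21.1 CPM (parental 24.5), 63.9-fold higher (42.0 to 102), with an effective share of 58.4%. ID4, an inhibitor of basic helix-loop-helix factors, had 2.39 and 24.9 CPM (parental 0.725), 10.4-fold higher (8.84 to 12.3). SCN9A, a voltage-gated sodium channel, had 0.976 and 14.2 CPM, 14.5-fold higher.

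Most neural genes measured were higher in ldR-H460. Of 11 measured 7 were at least 1.5-fold higher and 1 lower, with a median of 1.98, while their summed level was 768 CPM in mdR-H460 and 734 CPM in ldR-H460. NEFL, the light neurofilament chain, had 26.1 CPM in mdR-H460 and 118 CPM in ldR-H460 (parental 82.5), 4.53-fold higher, and was found in 11.8% and 36.1% of thinned cells (23.6% and 54.4% of all). Its level was between 93.3 and 154 CPM in the 3 main ldR-H460 clusters and 23.5 and 33.8 CPM in the 2 main mdR-H460 clusters. FGF13, an intracellular fibroblast growth factor relative, had 0.180 and 6.81 CPM (parental 58.0), 37.8-fold higher. The heavy neurofilament chain NEFH had 0.630 and 3.90 CPM (parental 0.0755). MAPT, the microtubule protein tau, which was not on the list, had 3.33 and 20.5 CPM (parental 4.31). NCAM1, a neural adhesion molecule, moved the other way, from 1.17 to 0.116 CPM (parental 15.2). CHGA, the secretory granule gene chromogranin A, stood at 1.67 and 1.46 CPM.

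The list of insulin-like growth factor binding proteins and insulin pathway genes also stood out by count. Of 12 genes of this list 7 were at least 1.5-fold higher and 1 lower, with a median of 0.91. IGFBP2 had 27.4 and 116 CPM (parental 209), 4.25-fold higher (4.03 to 4.48), and was found in 12.5% and 40.6% of thinned cells (24.8% and 63.8% of all). Its level hardly varied between clusters, from 115 to 120 CPM in the 3 main ldR-H460 clusters. IGFBP3 had 32.2 and 88.6 CPM, 2.76-fold higher, and IGFBP4 37.3 and 12.7 CPM, 2.94-fold lower. IRS1, an adaptor of the insulin receptor, had 6.36 and 14.9 CPM.

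MT2A, a metallothionein that binds zinc and copper, was the 1 higher gene changed in most cells by the first rule. It had 195 CPM in mdR-H460 and 460 CPM in ldR-H460 (parental 179), 2.36-fold higher (2.31 to 2.41). Thinned mdR-H460 cells had a median of 0 UMIs of it and thinned ldR-H460 cells a median of 2, and 46.2% and 80.0% had a UMI (61.1% and 91.6% of all cells). Its effective share was 24.4% and 56.5%, so that it was also more evenly held in ldR-H460. MT2A is one of a family of near copies whose reads may be shared. FTL, the ferritin light chain, had the largest difference in CPM, 17681 against 29539 (parental 12389), 1.67-fold higher, and was found in all thinned cells. The heavy chain FTH1 stood at 9610 and 10459 CPM. FTL has many processed pseudogenes, and its level may hold reads of them.

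YAP target genes were higher by count, and ANKRD1 led them. ANKRD1, an ankyrin-repeat protein of the nucleus and sarcomere, had 11.6 CPM in mdR-H460 and 97.3 CPM in ldR-H460 (parental 2.37), 8.36-fold higher (7.76 to 9.02), and was found in 4.48% and 28.2% of thinned cells (7.45% and 42.8% of all). It was unevenly held, with an effective share of 25.3% in ldR-H460 and 4.97% in mdR-H460. In ldR-H460 it stood at 66.9, 234 and 38.2 CPM in clusters 1, 4 and 6, and in mdR-H460 at 5.08 and 18.7 CPM in clusters 2 and 3. In the 178 mdR-H460 cells of cluster 7 it stood higher, at 140 CPM, with a UMI in 33.1% of them. CTGF, a matrix signalling protein, had 49.3 and 114 CPM (parental 155), 2.31-fold higher, and also stood highest in cluster 4 of ldR-H460, at 232 CPM. CRIM1, a transmembrane binder of BMP ligands, had 7.08 and 26.0 CPM, 3.67-fold higher, with an effective share of 82.9%. CYR61, a relative of CTGF, stood at 134 and 172 CPM. Of 22 targets measured 9 were at least 1.5-fold higher and 3 lower, with a median of 0.42. The lower ones were F3, the tissue factor of clotting (1.80 to 0.761 CPM), the surface nucleotidase NT5E (5.10 to 2.27 CPM) and GADD45B. The list's median turned to -0.19 when cluster 2, the largest of mdR-H460, was left out, which removed 2441 mdR-H460 but 19 ldR-H460 cells. ANKRD1 then had a log2 ratio of 1.82 and was still higher in ldR-H460.

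The TEAD motif GGAATG, searched on both strands, was found in 7 of the 18 YAP targets with a promoter window (38.9%), against 11.7% of all windows. The members were listed as targets of YAP, which works through TEAD, so this share too describes the list only. CYR61, CRIM1, ARHGEF17 and ASAP1 had no window. The windows of ANKRD1 (chr10:90921185-90921332, minus strand) and CTGF (named CCN2 in RefSeq, chr6:131951437-131951566, minus strand) are shown for the repeats they hold, from 25 bases before the first to 25 after the last match, read along the gene with each match in capitals.
ANKRD1: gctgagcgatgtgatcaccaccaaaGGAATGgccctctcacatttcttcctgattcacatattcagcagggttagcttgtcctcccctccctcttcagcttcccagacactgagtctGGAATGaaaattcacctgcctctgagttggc
CTGF: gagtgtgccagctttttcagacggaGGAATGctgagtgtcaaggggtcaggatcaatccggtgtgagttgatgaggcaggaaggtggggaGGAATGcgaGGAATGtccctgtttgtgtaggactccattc
ANKRD1 holds 2 matches and CTGF 3, all on the strand of the gene. Of the 7, TGFB2 alone stood lower in ldR-H460, at 6.62 and 5.77 CPM, and NUAK2 stood at 7.41 and 9.77 CPM. LATS2, FOXF2 and WTIP were higher, with log2 ratios of 0.88, 0.76 and 1.08.

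The 5 higher genes with an effective share under 25% did not form 1 group. CDH11, a cadherin of mesenchymal cells, had the largest ratio of all higher genes, 0.120 against 12.0 CPM, 100.1-fold (50.5 to 233), and the parental library had more, 167 CPM. It was found in 5.33% of thinned ldR-H460 cells, with an effective share of 14.9%, and was spread over the main clusters at 11.1, 16.9 and 9.49 CPM in clusters 1, 4 and 6. IGFBP7 had 1.13 and 11.3 CPM (parental 18.9), 10.1-fold higher, with an effective share of 5.08%. It stood at 46.0 CPM in cluster 4 and 1.09 CPM in cluster 1, and cluster 4, 26.9% of ldR-H460 cells, held 91.7% of its UMIs. EDN1, the vasoactive peptide endothelin, had 6.15 and 14.2 CPM (parental 19.8) and likewise stood highest in cluster 4, at 43.2 CPM. Across thinned ldR-H460 cells IGFBP7 and EDN1 correlated at 0.24, whereas APLN, CDH11 and TUBB2B joined no other gene. DKK1, a secreted WNT inhibitor at 6.92 and 13.3 CPM, had 78.8% of its ldR-H460 UMIs in cluster 4, and its log2 ratio turned to -0.36 without cluster 2.

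Matrix genes were divided. Of 17 measured collagens and matrix genes 8 were at least 1.5-fold higher and 4 lower, with a median of 0.58. COL12A1, a collagen at the surface of fibrils, had 0.525 and 7.08 CPM (parental 0.317), 13.5-fold higher, and THBS1, an adhesive matrix protein, 0.210 and 3.67 CPM, 17.5-fold higher. COL7A1, the anchoring fibril collagen of epithelium, had 12.4 and 0.926 CPM (parental 3.11), 13.4-fold lower, and COL8A1 67.0 and 26.0 CPM (parental 94.3), 2.57-fold lower. LAMB3, a laminin chain of epithelial basement membrane, had 1.10 and 0.0827 CPM. Of 13 measured regulators and genes of the mesenchymal state 3 were at least 1.5-fold higher, 1 lower and 9 between, with a median of 0.43. Among the higher ones ZEB2 had 0.811 and 3.09 CPM (parental 19.8), with a UMI in 1.01% and 3.51% of all cells. The lower one was TGFBI, found in 85.8% and 83.3% of all cells. Keratins had 3 of 8 genes lower and none higher, led by KRT19, at 194 and 40.3 CPM (parental 1696), 4.82-fold lower, and found in 42.9% and 12.7% of thinned cells (54.8% and 20.2% of all). CLDN4, a tight junction protein, had 18.4 and 4.68 CPM, 3.94-fold lower.

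**Figure D5:**
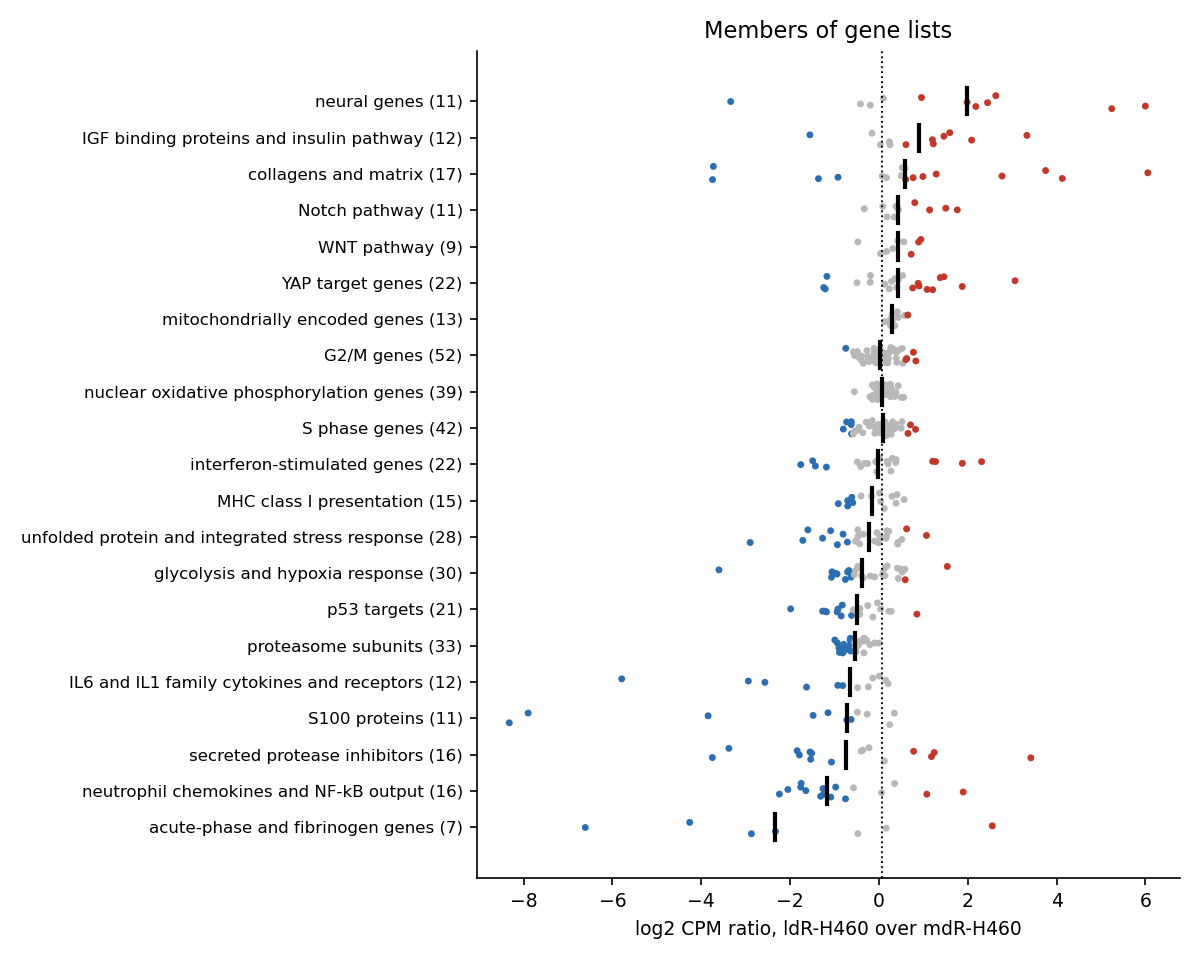
Each point is a measured member of a gene list (number in brackets) at its log2 CPM ratio of ldR-H460 over mdR-H460, red or blue where at least 1.5-fold higher or lower, black bars marking list medians and the dotted line the median of all 11799 genes, 0.08. The acute-phase list has the lowest median, -2.33, and the neural list the highest, 1.98, while the 39 nuclear oxidative phosphorylation genes lie close to the line.

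Proteasome genes were lower by small amounts. Of 33 proteasome subunits 16 were at least 1.5-fold lower and none higher, with a median of -0.54. PSMC4, an ATPase of the proteasome cap, had 143 and 71.7 CPM (parental 108), 1.99-fold lower, and PSMD12, a cap subunit, 103 and 53.9 CPM (parental 109), 1.92-fold lower. UBB, a ubiquitin gene, had 1790 and 1043 CPM (parental 1350), 1.72-fold lower. The 13 mitochondrially encoded genes had a median of 0.30, with 1 at least 1.5-fold higher: MT-ATP6, an ATP synthase subunit, at 4439 and 6969 CPM. Mitochondrially encoded genes took 5.21% of all UMIs in mdR-H460 and 6.80% in ldR-H460 (parental 4.80%). Nuclear oxidative phosphorylation genes, 39 in number, had none past 1.5-fold and a median of 0.07, which fell to just under 0 under edgeR factors and to -0.020 under DESeq2 factors. Of 30 glycolysis and hypoxia genes 10 were lower and 2 higher, with a median of -0.37. LDHA, lactate dehydrogenase, had 1459 and 759 CPM (parental 1326), 1.92-fold lower.

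Cell cycle lists had medians near that of all genes over all cells, but not in parts of the libraries. Of 42 S phase genes 3 were at least 1.5-fold higher and 5 lower, with a median of 0.10, and of 52 G2/M genes 4 were higher and 1 lower, with a median of 0.02, which turned negative under edgeR factors and was -0.063 under DESeq2 factors. Single members moved: PCNA, the replication clamp, had 140.3 and 84.7 CPM, but was higher in ldR-H460 without cluster 2 (log2 ratio 0.36). EXO1, a repair exonuclease, had 20.1 and 35.6 CPM. By calls on thinned counts, which alone do not show cycling, the share of cells in G1 was 38.1% in mdR-H460 and 26.3% in ldR-H460. The calls came from scores on these same lists within each library, so phase shares and list medians of called cells depend on the scoring. In cells called G1 the S phase median was 0.71 and the G2/M median 0.86, from which no difference between the derivatives is read. Without cluster 2 of mdR-H460 they were 1.12 and 2.10. Of its thinned mdR-H460 cells 49.0% were called S and 42.9% G2/M. Leaving it out removed 2441 mdR-H460 cells but 19 ldR-H460 cells. In cells called G1 the list of genes 2-fold apart was longer, with 251 higher and 327 lower. KIAA0101, a PCNA partner, was found in 65.3% and 93.1% of thinned cells (63.0% and 92.9% of all) at 418 and 668 CPM. CDKN3, a phosphatase of cyclin-dependent kinases, was found in 57.1% and 80.5% of thinned cells (60.5% and 87.2% of all) at 278 and 398 CPM. Of 21 p53 targets 9 were lower and 1 higher, with a median of -0.51. GDF15, a stress-induced cytokine, had 172 and 43.3 CPM (parental 70.2), 3.97-fold lower, and CCNG1, a cyclin-like target, 73.5 and 133 CPM, 1.81-fold higher.

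Genes linked to drug handling and to stem cells differed in both directions. Of 9 efflux and vault genes 3 were at least 1.5-fold higher and 1 lower, with a median of 0.44. ABCG2, an exporter of many drugs, had 4.76 and 8.15 CPM (parental 10.5), 1.71-fold higher, and was found in 1.98% and 4.14% of thinned cells. ABCB1, the exporter P-glycoprotein, had 19 UMIs in mdR-H460 and 2 in ldR-H460. ABCC1, ABCC2 and ABCC3, exporters of conjugated drugs, stood at 4.88 and 6.60, 35.0 and 36.8, and 35.6 and 50.7 CPM, and ABCC3 was lower in ldR-H460 without cluster 2 (log2 ratio -0.32). Of 14 aldehyde dehydrogenases and cytochromes 3 were higher and 5 lower. ALDH3A1, which oxidises aromatic aldehydes, had 184 and 347 CPM (parental 162), 1.89-fold higher, and ALDH1A1, which makes retinoic acid, 96.8 and 27.3 CPM (parental 50.1), 3.54-fold lower. Among 4 measured pluripotency factors SOX2 had 3.06 and 5.72 CPM and KLF5, a factor of epithelial progenitors, 3.81 and 8.37 CPM, whereas KLF4 had 28.8 and 19.4 CPM and MYC 71.0 and 90.7 CPM. POU5F1, the core pluripotency factor, had 3 UMIs in mdR-H460 and none in ldR-H460.

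A few genes at a like level differed in spread over cells. Among 652 genes at a like level and with a mean of 0.5 UMIs or more per thinned cell in both libraries, 24 had a Fano factor (the variance over the mean of UMIs per cell) at least 1.5-fold lower in ldR-H460 and none one that much higher, with a median ratio of 0.95. ANXA1, a phospholipid-binding protein, stood at 484 and 411 CPM with Fano factors of 4.64 and 1.92. CYP1B1, an oxidase of the cytochrome P450 family, stood at 101 and 113 CPM with 2.23 and 1.22, and its effective share was 56.3% and 83.7%. FTH1 had 9.50 and 5.28. The mdR-H460 library also spans more detected genes per cell and more shallow cells, as given above, and ANXA1 and CYP1B1 stood higher in its cluster 7 (2211 and 479 CPM) than in its other cells (444 and 92.2 CPM). The part of either in these differences was not tested.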

How the data were processed

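UMI counts per gene and cell were taken from the tables deposited by the authors, 1 per library, with 10x Chromium 3′ v2 libraries per the labels' protocols. Tools named in the submitters' processing notes are Cell Ranger 3.0.2 and Seurat 3.0, with GRCh38 as the build. The annotation release and cell filters are not given in the sources used here. All cells were kept and no doublet caller was run. UMIs were summed per library and divided by its total (CPM). Ratios carry 95% exact binomial-based intervals, shares of cells Clopper-Pearson intervals. A count of 0 stood at a floor of 3 UMIs. Cells of both libraries were clustered together with leidenalg 0.10.2 (2000 variable genes, 30 principal components, 15 neighbours, resolution 0.5, no batch correction) and clusters are called by number; cycle phases were called with scanpy 1.11.5 on thinned cells. The steps were tested on simulated data. As alternatives, edgeR 4.0.16 and DESeq2 1.42.0 gave size factors only, with no test. Promoter sequences came from RefSeq (GRCh38.p14).

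Genes named were those with the 15 largest ratios and 10 largest CPM differences in each direction, up to 4 per list and direction, class leaders, the 8 largest moves in share and in Fano factor. CTGF, CXCL3, CXCL5, CYR61, EDN1, IRS1, NFKB1, NFKBIA, TGFB2, the stress genes CSRNP1, PPP1R15A, SNHG12 and VGF, and BNIP3, DDIT4, EGR1, NDUFA4L2, PGK1 and PLIN2 were added after values were seen. The comparison, lists and rules were chosen with earlier results of these data known. The effective share and the settings without the 31 and 35 cells and without the cell richest in a gene were added after the data were seen. A gene named by the rule is not reported here. No paired analysis was possible because each group has 1 library.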

Additional observations from a re-analysis of the deposited data

How the results depend on the processing

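Scaling by edgeR or DESeq2 factors kept 330 and 325 of the 350 genes at least 2-fold apart in their direction. Leaving out cells under 1000 UMIs, or the 31 and 35 cells that clustered with the other library, kept 349. A limit is that the derivatives differ in depth and gene range per cell and have 1 library each. The cause of the moves below was not tested, except that filters change which genes are counted. Higher genes (159) became 273 with totals without mitochondrially encoded and ribosomal protein genes, 27 at 50 CPM, 607 at 1 CPM and 1469 with no filter, and lower genes (191) became 75 at 50 CPM, 522 at 1 CPM and 1348 with no filter; the percent lower (54.6%) became 43.9% without mitochondrial and ribosomal totals and 73.5% at 50 CPM. In cells called G1 there were 251 higher and 327 lower genes, 9 higher and 46 lower changed in most cells, 10 lower in a minority, 197 higher with an effective share of 50% or more and 99 lower under 25%. Without cluster 2, the largest of mdR-H460, there were 495 higher and 466 lower, 38 and 64 in most cells, 9 lower in a minority, 465 higher and 239 lower with an effective share of 50% or more, and 117 lower under 25%, and the median of all genes moved to 0.11. Leaving out cluster 2 removed 2441 mdR-H460 cells but 19 ldR-H460 cells, so the libraries then differ in phase. Of the thinned cells of mdR-H460 cluster 3, which remains, 86.6% were called G1. Without cluster 7 there were 1 lower gene in a minority and 19 lower with an effective share under 25%. Genes in most cells became 8 higher at 8000 UMIs per cell, 2 higher in cells under 4000 genes and 15 lower at 3000 UMIs. Lower genes in a minority became 1 at 3000 UMIs and 1 at a mean of 1 UMI per cell. Leaving out the cell richest in each gene moved none of the 4 effective share counts by over 1.5 times. Among genes named by the rule and at least 1.5-fold apart, log2 ratios turned without cluster 2 for CDC45 (1.19), CRYAB (-0.28), DKK1 (-0.36), FOSB (-0.42), PCNA (0.36), PKP2 (-0.10), RPA2 (0.29), TIPIN (0.24) and the YAP target median (-0.19); in G1 for CDC45 (0.34); and without cluster 7 for HBEGF (0.017), HMGCS1 (0.058), HSPA1A (0.17), KDM6B (0.035), SESN2 (0.14) and the immediate early median (0.13). Among genes closer than that, S100A4 (-0.46), ABCC3 (-0.32), CAV1 (-0.27), CYP1B1 (-0.22) and FTH1 (-0.16) were among those that turned without cluster 2, and CSRNP1 (0.23), named outside the rule, turned without cluster 7. The pluripotency median was -0.11 over members at 10 CPM or more.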

Other observations

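The stress cluster held different genes in the 2 derivatives. Clusters were built on these genes, so the values describe the cells. In mdR-H460 its 178 cells stood above the other cells in HSPA6, an inducible heat shock protein (267 against 0.338 CPM), EGR1, an immediate early factor (531 against 7.63 CPM), and DDIT4, an inhibitor of growth signalling (2120 against 39.8 CPM). In ldR-H460 its 72 cells led with genes of low oxygen and lipid storage: NDUFA4L2, a hypoxia-induced mitochondrial protein, stood at 371 against 3.82 CPM, and 62.0% of its ldR-H460 UMIs lay in these cells. PLIN2, a coat protein of lipid droplets, stood at 203 against 11.3 CPM. BNIP3, a mitophagy receptor, stood at 1423 against 309 CPM, and PGK1, a glycolytic kinase, at 1408 against 331 CPM.

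Interferon-stimulated genes did not move together. Of 22 measured 4 were at least 1.5-fold higher and 4 lower in ldR-H460, with a median of -0.02, which was 0.030 with totals that left out mitochondrially encoded and ribosomal protein genes. IFI44L stood at 3.26 and 16.2 CPM, 4.96-fold higher, and IFITM2, which blocks viral entry, at 42.6 and 103 CPM, 2.42-fold higher. ISG20, an exonuclease, stood at 198 and 58.4 CPM, 3.39-fold lower, and the RNA sensor DDX58 at 2.28 and 0.810 CPM. Of 15 genes of class I antigen presentation 6 were lower and none higher, among them the peptide transporter TAP1 at 21.6 and 13.8 CPM and HLA-B at 24.1 and 12.8 CPM, whose reads may be shared with other HLA genes. Of 11 Notch pathway genes 4 were higher and none lower, led by the receptor NOTCH3 at 4.89 and 16.6 CPM, 3.40-fold higher. HMOX1, which degrades heme, stood at 48.5 and 16.8 CPM, 2.89-fold lower. GSR, glutathione reductase, stood at 29.5 and 52.5 CPM, 1.78-fold higher.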
